A study of Mus musculus with 6 samples.

Results

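The cytosolic ribosomal protein genes are the protein-coding genes of the deposited count table whose symbols are Rps or Rpl with a number and, in some, a closing letter or paralogue number, together with Rplp0, Rplp1, Rplp2 and Rpsa. The S6 kinase genes (Rps6k) and the copies whose symbols carry -ps or rt are not among them. They number 83 of the 54532 genes of the table, 32 for the small (40S) subunit and 51 for the large (60S) subunit. RNA was sequenced from inguinal white adipose tissue, the fat pad under the skin of the groin, of old mice kept in the cold for 7 days. The estrogen group (3 libraries) came from animals given estrogen during that cold exposure, and the vehicle group (3 libraries) from animals given vehicle during the same exposure, so that age and cold were shared by all 6 libraries. The series asks how estrogen acts on beige adipocytes, the heat-producing fat cells that cold induces in this depot, in old animals. The labels give neither strain, sex, age in months, estrogen dose nor route. Nor do they say that the libraries of a group stem from different animals, and the p-values speak for the variation among these 6 libraries, part of which may be technical.

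A ribosome is built from ribosomal RNA and about one copy of each ribosomal protein, and cells make the 2 subunits in matched amounts. These messages are short, abundant and stable, and most begin with a run of pyrimidines, the 5′ terminal oligopyrimidine (TOP) motif, through which the kinase complex mTORC1 and the protein Larp1 control their translation. The mammalian genome also holds many copies of ribosomal protein genes that arose by reverse transcription of the message. Most are pseudogenes, and reads from the parent gene can be assigned to them.

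The TOP motif was searched for at the annotated start sites. For 63 of the 83 genes the RefSeq promoter table (build GRCm38.p6) held an entry, and the motif searched was a C followed by at least 4 further pyrimidines (C or T) on the transcribed strand, with no other motif searched. It began exactly at an annotated start in 13 of the 63 genes (20.6%), against 813 of the 27025 genes of the table (3.01%), and within 10 bases of a start in 39 (61.9%), against 34.4% of all genes. The windows that follow run from 15 bases before the annotated start to 15 bases from it, with the start as the first base after those 15 and the match nearest to it in capitals. The capitals run from the C of the match to the end of its pyrimidines, or to the edge of the window, as in Rps12. Pyrimidines that stand before that C are in lower case, as in Rpl7a, Rpl35a, Rps27 and Rplp2. They show 4 of the genes with the smallest p between the groups (Rpl7a, Rps12, Rps26 and Rpl35a), the gene with an identical copy (Rps27), the S6 kinase substrate (Rps6) and a gene of the ribosomal stalk (Rplp2).
Rpl7a, chr2:26910792-26910821, plus strand: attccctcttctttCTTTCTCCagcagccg
Rps12, chr10:23787195-23787224, minus strand: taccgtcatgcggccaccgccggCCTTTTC
Rps26, chr10:128626492-128626521, minus strand: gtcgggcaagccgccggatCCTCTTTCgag
Rpl35a, chr16:33056467-33056496, plus strand: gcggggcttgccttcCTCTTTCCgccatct
Rps27, chr3:90213634-90213663, minus strand: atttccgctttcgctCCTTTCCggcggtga
Rps6, chr4:86857353-86857382, minus strand: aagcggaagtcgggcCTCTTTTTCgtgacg
Rplp2, chr7:141447636-141447665, plus strand: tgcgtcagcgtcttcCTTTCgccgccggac
The marked match began 1 base before the annotated start in Rpl7a, 8 bases after it in Rps12 and 4 bases after it in Rps26, and exactly at the start in the other genes shown. The other annotated starts of Rpl35a had no match within 10 bases. Annotated starts are often a few bases from the base that cells use most, so a missing match says only that these letters are not in the window.

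Total counts were 19263623, 16046601 and 16473388 in estrogen libraries 1, 2 and 3, and 19102059, 19014779 and 20736771 in vehicle libraries 1, 2 and 3. Adipocyte markers were abundant in all 6 libraries, with summed levels of 19865 to 31194 CPM (counts relative to the scaled library size) with estrogen and 13756 to 17915 CPM with vehicle. Markers of other cell types differed between the libraries. The 6 skeletal muscle markers summed to 6975, 4.38 and 2.64 CPM in estrogen libraries 1, 2 and 3, and to 3.04, 11.3 and 59.2 CPM in the vehicle libraries, with Ckm and Myh4 at 0 in estrogen libraries 2 and 3 and vehicle library 1. The 9 B cell markers summed to 188, 6.87 and 121 CPM with estrogen, and to 5.02, 5.96 and 7.71 CPM with vehicle. Macrophage markers lay between 475 and 1500 CPM with estrogen and between 2002 and 2815 CPM with vehicle, and fibroblast and progenitor markers between 1214 and 8364 CPM with estrogen and between 11949 and 33754 CPM with vehicle. Mammary epithelium markers summed to at most 3.04 CPM in any library, with Krt5 and Krt14 at 0 throughout. In such bulk tissue fewer cells of a type and less RNA per cell cannot be told apart, and the part of these cell types in the results below was not tested.

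Ribosomal protein messages took a smaller part of the counts in every estrogen library than in any vehicle library. The 32 small subunit genes held 0.766, 0.689 and 0.661% of all counts in estrogen libraries 1, 2 and 3, and 0.906, 0.971 and 0.889% in vehicle libraries 1, 2 and 3. The 51 large subunit genes held 1.01, 0.946 and 0.859% with estrogen, and 1.20, 1.27 and 1.20% with vehicle. For both subunits the highest estrogen library lay below the lowest vehicle library. Together the 83 genes took 1.64 ± 0.130% of the counts with estrogen and 2.15 ± 0.0850% with vehicle (SD, n = 3 each), a ratio of the means of 0.766. The share of counts from the mitochondrial chromosome moved the other way, with 9.08, 10.2 and 11.7% with estrogen and 8.72, 6.40 and 6.26% with vehicle. With those counts left out of the total the ratio was 0.793. Against library sizes scaled by trimmed mean of M values (TMM), which sets the bulk of genes level between libraries, the share was 1.74 ± 0.0267% with estrogen, against 2.03 ± 0.141% with vehicle (SD, n = 3 each), and the ratio was 0.860. A share over a list chosen with earlier results known was given no test.

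The balance between the subunits differed by less than the spread within the groups. The ratio of small to large subunit counts was 0.755, 0.728 and 0.769 in estrogen libraries 1, 2 and 3, and 0.754, 0.762 and 0.740 in vehicle libraries 1, 2 and 3. These values overlapped, with means of 0.751 ± 0.0209 with estrogen and 0.752 ± 0.0111 with vehicle (SD, n = 3 each).

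**Figure D1:**
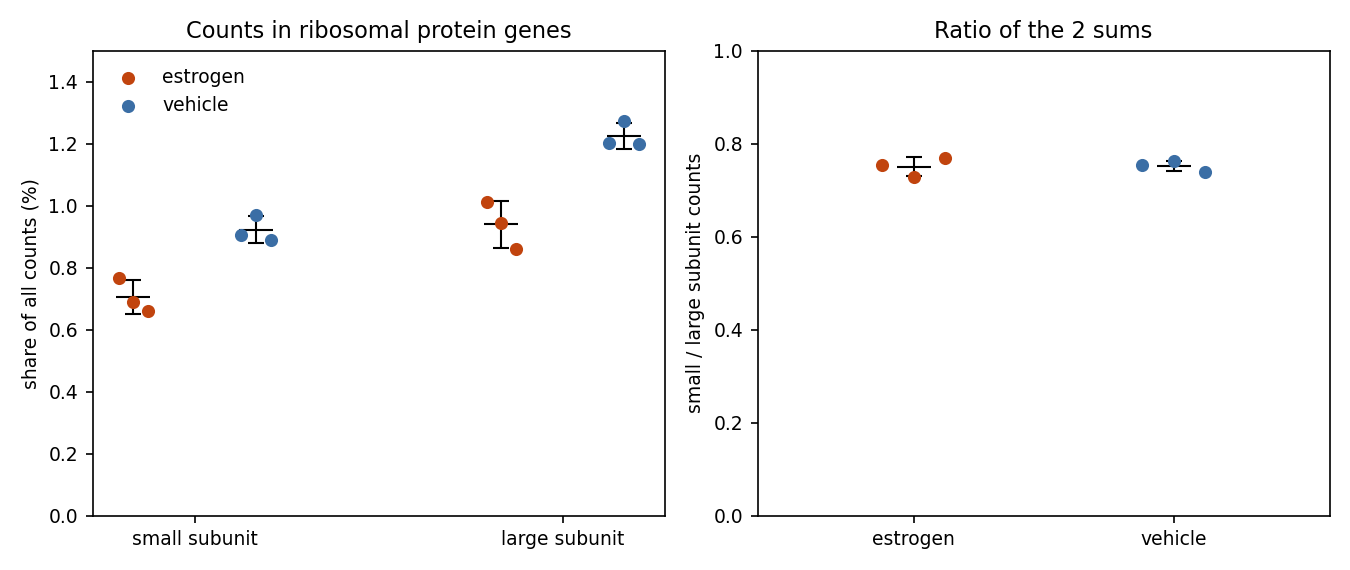
Share of all counts in small and large subunit ribosomal protein genes (left, percent) and the ratio of small to large subunit counts (right), with a point per library and bars for the mean ± SD (n = 3 each). The estrogen points of each subunit lie below the vehicle points, while the ratios overlap at means of 0.751 with estrogen and 0.752 with vehicle.

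Gene by gene the differences were small and mostly in one direction. Of the 83 genes, 81 passed the filter on low counts, and 75 of these had a negative log2 fold change (estrogen over vehicle), where 49.7% of the 15591 genes tested did. The median log2 fold change was -0.21 over the 81 genes, or 0.866-fold, and 0.0025 over all genes tested. It was -0.21 for the 32 small subunit genes and -0.21 for the 49 large subunit genes that were tested, with a difference between the medians of 0.0014. The spread was narrow, as 61 of the 81 genes lay within 0.15 of the median and the quartiles were -0.29 and -0.16. The median stayed negative under each scaling, at -0.20 with DESeq2 size factors, -0.16 with upper quartile scaling and -0.37 with library totals alone. With library totals the median of all genes moved to -0.17, and the ribosomal protein genes lay 0.20 below it, against 0.21 below with TMM scaling.

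No single gene passed the test. By edgeR's quasi-likelihood test with Benjamini-Hochberg adjustment over all 15591 genes, 0 ribosomal protein genes passed the adjusted threshold of 0.05, as did 0% of all genes tested, and the smallest adjusted p was 0.207. At an unadjusted p under 0.05 the same test placed 13 of the 81 lower (4 small and 9 large subunit genes), where 10.9% of all genes were, and 1 higher (Rpl39l), where 9.49% of all genes were. For fits with libraries left out the share of all genes lower was not worked out, and the 10.9% does not apply to them. The count of 13 was 6 without vehicle library 1, 2 without vehicle library 2 and 10 without vehicle library 3. It was 14 without estrogen library 1, 6 without estrogen library 2 and 4 without estrogen library 3. It was 4 without both estrogen libraries 1 and 3, those highest in B cell markers. DESeq2 on the same counts placed 2 genes lower past its adjusted threshold, Rpl7a and Rps12, and 0 higher, where it called 3.34% of all genes lower and 2.75% higher. All estrogen libraries lay below all vehicle libraries in 43 of the 81 genes (16 small and 27 large subunit genes), against 14.8% of all genes tested, and above them in 1, Rpl39l, against 12.6%.

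**Figure D2:**
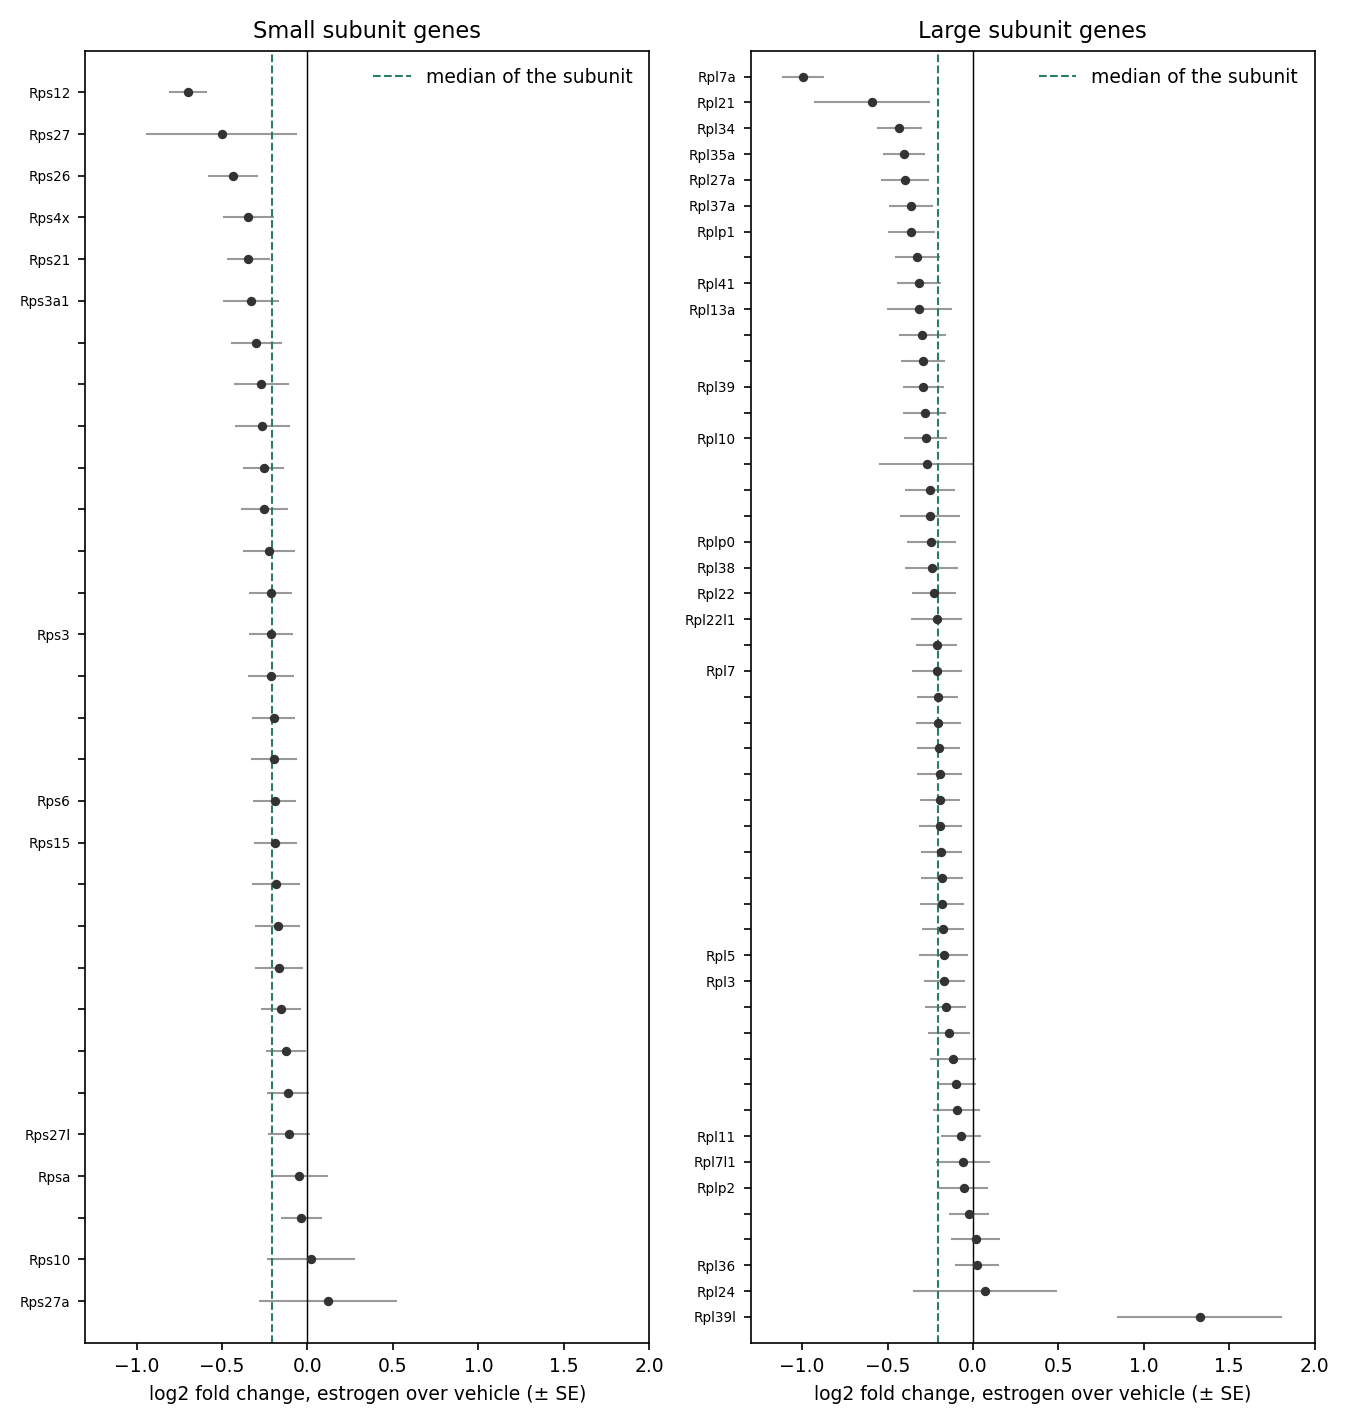
Log2 fold change, estrogen over vehicle, of 30 small subunit and 49 large subunit genes that passed the filter on low counts (2 tested small subunit genes are not shown), with standard errors from the edgeR fit and a dashed line at the median of all tested genes of each subunit and names for the genes chosen by the naming rule. Most genes lie close to the median of -0.21, with Rpl7a and Rps12 furthest below it and Rpl39l furthest above.

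The lowest value of a gene usually fell in an estrogen library and the highest in vehicle library 2. Over the 78 genes with a vehicle mean of at least 10 CPM, the lowest of the 6 values stood in estrogen libraries 1, 2 and 3 for 12, 25 and 39 genes, and in vehicle libraries 1, 2 and 3 for 0, 0 and 2 genes. The highest stood in vehicle library 2 for 55 genes, vehicle library 1 for 18 and vehicle library 3 for 1, and in the estrogen libraries for 0, 1 and 3. The median deviation from the mean of the 6 libraries, on the log2 CPM scale, was -0.083, -0.12 and -0.13 in estrogen libraries 1, 2 and 3, and 0.12, 0.21 and 0.00077 in vehicle libraries 1, 2 and 3. The estrogen libraries were close to each other, while the vehicle libraries were spread, with vehicle library 3 nearest to the estrogen group.

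**Figure D3:**
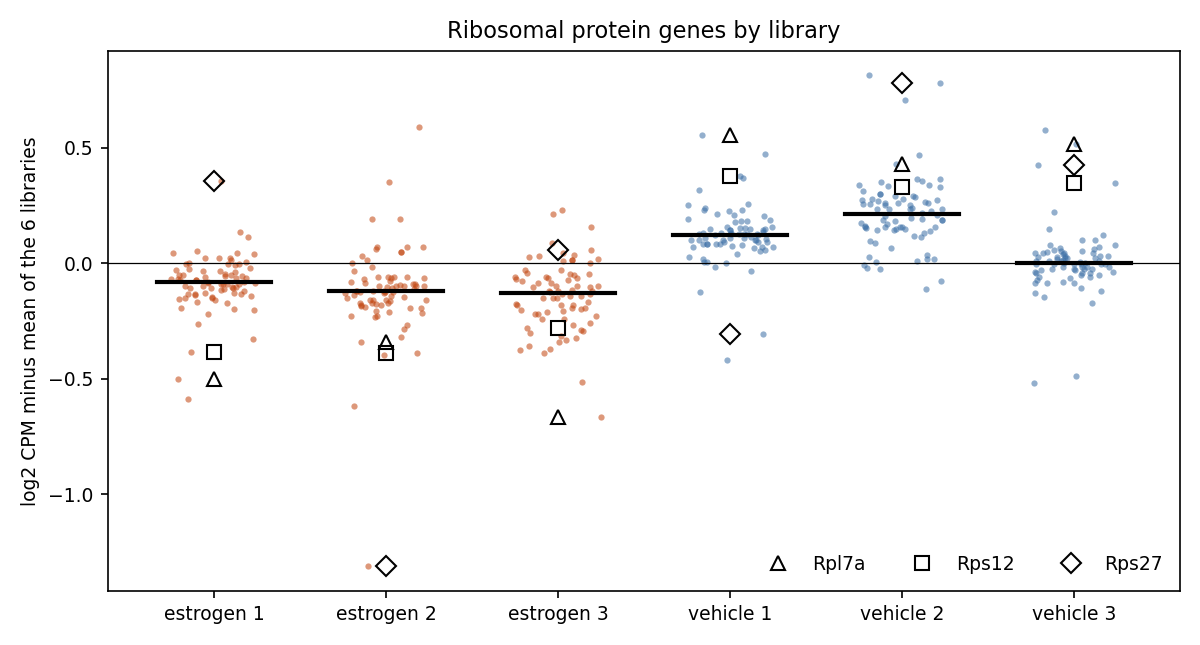
Log2 CPM of each of the 78 ribosomal protein genes with a vehicle mean of at least 10 CPM, minus its mean over the 6 libraries, with a point per gene, a bar at each library's median and marked symbols for Rpl7a, Rps12 and Rps27. The library medians run from -0.13 to -0.083 with estrogen and from 0.00077 to 0.21 with vehicle. Rps27 departs most from the library median in estrogen library 2, where it lies below it.

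Rpl7a, a protein of the large subunit, had the smallest p (ENSMUSG00000062647, chromosome 2, 26910764 to 26913318, mm10). It was at 43.0, 48.0 and 38.4 CPM in estrogen libraries 1, 2 and 3, and at 89.4, 82.0 and 87.0 CPM in vehicle libraries 1, 2 and 3. The groups did not overlap, and the vehicle libraries were close to each other. The log2 fold change was -0.996 ± 0.12 (SE), with an edgeR adjusted p of 0.207 and a DESeq2 adjusted p of 3.77e-07. Rps12, a protein of the small subunit head, came next (ENSMUSG00000061983, chromosome 10, 23785183 to 23787275, mm10). It was at 109, 109 and 117 CPM in estrogen libraries 1, 2 and 3, and at 185, 179 and 181 CPM in vehicle libraries 1, 2 and 3. The groups again stood apart with little spread within either. Its log2 fold change was -0.70 ± 0.11 (SE), with an edgeR adjusted p of 0.207 and a DESeq2 adjusted p of 1.60e-07. Relative to the median of the ribosomal protein genes, Rpl7a lay a further 0.79 below and Rps12 a further 0.49 below on the log2 scale. Both genes host small nucleolar RNAs, and 2 of these overlap annotated exons of Rpl7a and 3 those of Rps12 on the same strand. Overlap with another gene on the same strand was not particular to them, as 27 of the 83 members had it.

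**Figure D4:**
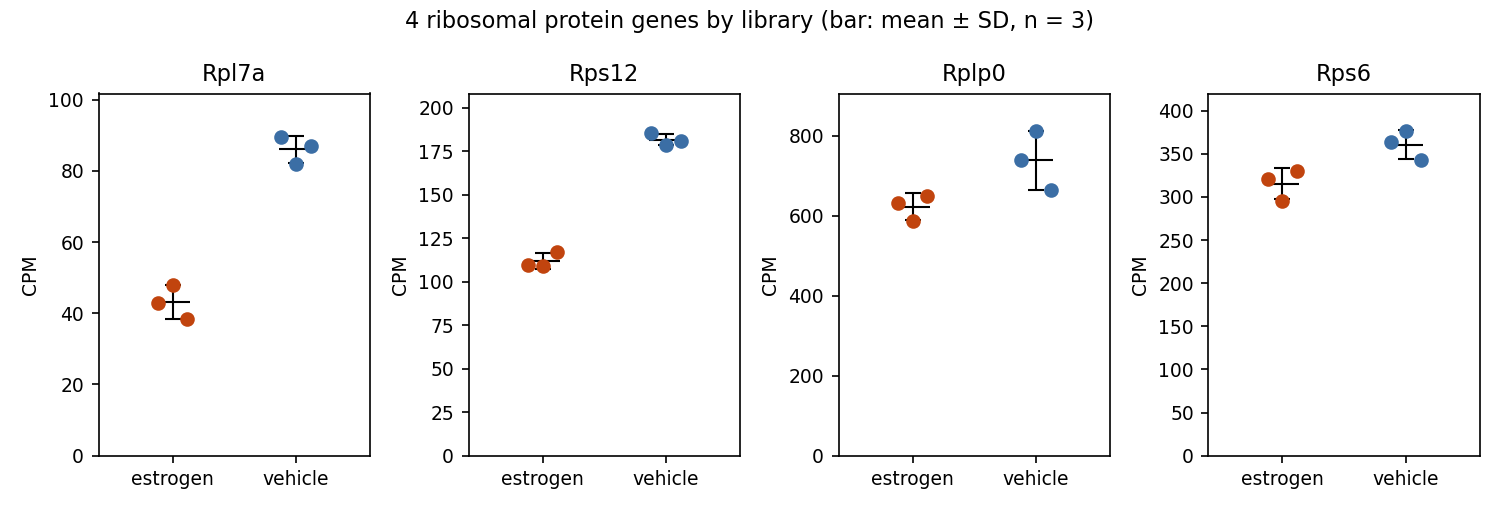
CPM of Rpl7a, Rps12, Rplp0 and Rps6 in each library, with bars for the mean ± SD (n = 3 each) and axes from 0. Rpl7a averages 43.1 CPM with estrogen and 86.1 CPM with vehicle, and Rps12 averages 112 CPM with estrogen and 182 CPM with vehicle, while Rplp0 and Rps6 show smaller gaps.

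Next in order of the test were further structural proteins. In the small subunit, Rps26, which lines the channel where the message leaves, was at 232, 236 and 199 CPM with estrogen and at 321, 320 and 262 CPM with vehicle, a log2 fold change of -0.44 ± 0.15 (SE; edgeR adjusted p = 0.207). Rps21 averaged 118 ± 2.30 CPM with estrogen, against 151 ± 15.5 CPM with vehicle, and the X-linked Rps4x averaged 342 ± 26.8 CPM with estrogen, against 435 ± 52.4 CPM with vehicle (SD, n = 3 each). In the large subunit, Rpl34 was at 147, 159 and 136 CPM with estrogen and at 193, 219 and 183 CPM with vehicle (log2 fold change -0.43 ± 0.13, SE). Rpl35a had a log2 fold change of -0.40, Rpl27a of -0.40 and Rpl37a of -0.36. In each of these 7 genes, taken by smallest p, every estrogen library lay below every vehicle library. This held in 43 of the 81 tested members and in 14.8% of all genes tested. The edgeR adjusted p values of the 7 genes ran from 0.207 to 0.247.

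The stalk of the large subunit, which recruits the translation factors that hydrolyse GTP, is formed by Rplp0 with pairs of Rplp1 and Rplp2. Its genes had the following values. Rplp1 was at 456, 465 and 460 CPM with estrogen and at 622, 625 and 529 CPM with vehicle, a log2 fold change of -0.36 ± 0.14 (SE; edgeR adjusted p = 0.218), without overlap. Rplp0 was at 633, 587 and 650 CPM with estrogen and at 739, 812 and 665 CPM with vehicle (-0.24 ± 0.14, SE), also without overlap. Rplp2 was at 272, 320 and 333 CPM with estrogen and at 342, 290 and 329 CPM with vehicle, so that the groups overlapped and the log2 fold change was -0.054 ± 0.14 (SE). Whether Rplp2 differed from Rplp1 in its response was not tested.

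Members with roles beyond the ribosome's core lay within the same range. Rps6, the substrate of the S6 kinases, averaged 316 ± 18.02 CPM with estrogen, against 361 ± 17.0 CPM with vehicle (SD, n = 3 each), a log2 fold change of -0.19 ± 0.13 (SE). Rps3, a small subunit protein at the message entry channel that also takes part in DNA repair, had a log2 fold change of -0.21. Rpl5 and Rpl11, which together with the 5S ribosomal RNA bind the p53 inhibitor Mdm2, had log2 fold changes of -0.17 ± 0.14 and -0.070 ± 0.12 (SE), with overlapping groups. Rpl38, which in mouse embryos is needed for the translation of a subset of Hox messages, was at 105, 114 and 83.3 CPM with estrogen and at 128, 123 and 108 CPM with vehicle (-0.24 ± 0.15, SE), and the groups overlapped. Rpl13a, known in human cells for silencing inflammatory messages after its release from the ribosome, was low at 9.44, 12.2 and 10.4 CPM with estrogen and 15.3, 13.9 and 10.7 CPM with vehicle. On the same strand 29.4% of its exon bases lie in exons of Gm45713, and how reads there were assigned was not given in the sources used here. Rpsa, also known as the laminin receptor precursor, was at 562, 516 and 693 CPM with estrogen and at 659.5, 625 and 547 CPM with vehicle, with a log2 fold change of -0.047 ± 0.17 (SE).

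Of the 6 tested genes above 0, Rps27a, Rps10, Rpl24, Rpl36 and Rpl18 had log2 fold changes between 0.015 and 0.12, each smaller than its standard error. Rps27a, which is made as a fusion with ubiquitin, was at 71.0, 160 and 125 CPM with estrogen and at 79.8, 174 and 74.6 CPM with vehicle, so libraries of 1 group differed by more than the groups did (0.12 ± 0.41, SE). Rpl36 was at 177, 212 and 173 CPM with estrogen and at 184, 187 and 184 CPM with vehicle (0.024 ± 0.13, SE). Rpl24 and Rps10 had the lowest levels per kilobase of the tested genes of their subunits, at 1.12 and 1.59 CPM per kilobase with estrogen and 1.05 and 1.57 CPM per kilobase with vehicle. On the same strand 47.0% of the exon bases of Rpl24 lie in exons of Gm28037 and 20.6% of those of Rps10 in exons of RPS10-NUDT3, with the same limit as for Rpl13a.

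Several members have a paralogue of restricted use. Rpl39l, the paralogue of Rpl39 that is best known from testis, was the one member higher at an unadjusted p under 0.05, at low counts. It had 18, 30 and 40 counts in estrogen libraries 1, 2 and 3, and 16, 10 and 21 counts in vehicle libraries 1, 2 and 3, or 0.929, 1.96 and 2.78 CPM with estrogen and 0.812, 0.505 and 0.910 CPM with vehicle. The lowest estrogen value lay only just above the highest vehicle value. The log2 fold change was 1.33 ± 0.48 (SE; edgeR adjusted p = 0.212), whereas Rpl39 itself averaged 122 ± 6.13 CPM with estrogen, against 149 ± 11.2 CPM with vehicle (SD, n = 3 each). Rpl3l, the paralogue of Rpl3 used in striated muscle, had 586, 6 and 4 counts with estrogen and 2, 0 and 11 counts with vehicle. It was high only in estrogen library 1, the library at 6975 CPM of muscle markers, and it did not pass the filter on low counts. Rpl3 averaged 324 ± 8.27 CPM with estrogen, against 365 ± 12.6 CPM with vehicle (SD, n = 3 each). Rpl10l, the germ cell paralogue of Rpl10, had 0 counts in all 6 libraries, which allows up to 0.130 to 0.209 CPM per library, while Rpl10 averaged 362 ± 6.10 CPM with estrogen, against 439 ± 31.4 CPM with vehicle (SD, n = 3 each).

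The remaining pairs had small differences. Rpl22 and its paralogue Rpl22l1 had log2 fold changes of -0.23 ± 0.13 and -0.21 ± 0.15 (SE), at 108 and 25.2 CPM with estrogen and 126 and 29.3 CPM with vehicle on average. Rpl7 and Rpl7l1 had log2 fold changes of -0.21 ± 0.14 and -0.058 ± 0.16 (SE). Rps27l, a paralogue of Rps27 known as a target of p53, was at 66.4, 73.9 and 63.4 CPM with estrogen and at 81.3, 69.3 and 69.2 CPM with vehicle, with overlapping groups and a log2 fold change of -0.11 ± 0.12 (SE). Per kilobase, Rpl22 was at 37.0 with estrogen and 43.4 with vehicle and Rpl22l1 at 12.7 with estrogen and 14.7 with vehicle, while Rpl7 was at 143 with estrogen and 166 with vehicle and Rpl7l1 at 18.8 with estrogen and 19.6 with vehicle (CPM per kilobase), so the main form was the more abundant of each pair.

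Rps27 and its retrogene copy Rps27rt were high in different libraries. Rps27 was at 166, 52.2 and 135 CPM in estrogen libraries 1, 2 and 3, and at 105, 222 and 174 CPM in vehicle libraries 1, 2 and 3. Rps27rt, on chromosome 9, had 782, 1985 and 706 counts with estrogen and 1646, 556 and 734 counts with vehicle. Where Rps27 was low (estrogen library 2 and vehicle library 1), Rps27rt was high. The GENCODE M21 transcripts of both genes matched at 341 of 341 aligned bases. Summed with its copies, Rps27 was at 206, 182 and 184 CPM with estrogen and at 188, 250 and 205 CPM with vehicle, and its log2 fold change became -0.17 ± 0.15 (SE), against -0.50 ± 0.44 (SE) for Rps27 alone.

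Rpl30 and its pseudogene Rpl30-ps10 are a less extreme case. Their transcripts differed at 3 of 347 aligned bases. The windows below, of 30 transcript bases each, hold 2 of these differences in capitals. They are shown because a read wholly within the aligned bases must cover such a base for its letters to tell the genes apart.
Rpl30 (chromosome 15, bases 182 to 211 of the transcript): tggccGcaaagaagaCgaaaaagtctctgg
Rpl30-ps10 (chromosome X, bases 5 to 34 of the transcript): tggccTcaaagaagaTgaaaaagtctctgg
The pseudogene had 443, 167 and 249 counts with estrogen and 488, 592 and 188 counts with vehicle. Rpl30 was at 78.4, 120 and 65.9 CPM with estrogen and at 86.3, 92.4 and 140 CPM with vehicle. In each group the library with the most counts in Rpl30 had the fewest in Rpl30-ps10.

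Copies were sought by symbol alone (a member's name followed by -ps or rt), so any copy under another name was not counted. Over the whole set, 298 pseudogenes and retrogenes carried the name of 1 of 61 members, and 156 of them had counts. They held 0.0884, 0.0865 and 0.0726% of all counts with estrogen, and 0.109, 0.110 and 0.0965% with vehicle, so their share was lower in each estrogen library too. Reads of the members may be counted in these copies, so the share of the copies may not be a separate observation. Of the 68 copies that passed the filter on low counts, 52 had a negative log2 fold change, with a median of -0.24. For 2 members the copies held more counts than the gene itself, Rps10 with 95.6% and Rpl17 with 83.6% of the summed counts. With its copies added, Rps10 was at 77.1, 70.6 and 67.7 CPM with estrogen and at 96.4, 99.1 and 78.6 CPM with vehicle, without overlap, and its log2 fold change turned to -0.35 ± 0.13 (SE; edgeR adjusted p = 0.221), against 0.020 ± 0.26 (SE) alone. Copies held 43.3% of the summed counts of Rpl21, whose own groups overlapped at a log2 fold change of -0.59 ± 0.34 (SE).

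The copies bear on the largest differences as well. Copies held 38.9% of the summed counts of Rps12, nearly all in Rps12-ps3, whose transcript aligned to that of Rps12 with 0 mismatches and 15 gap positions. Rps12-ps3 was at 76.9, 74.1 and 67.3 CPM with estrogen and at 113, 128 and 87.2 CPM with vehicle, a log2 fold change of -0.58 ± 0.16 (SE; edgeR adjusted p = 0.207), so copy and parent lay lower together. Reads of the parent may be counted in the copy, so the lower value of the copy may not be a separate observation. The sum of Rps12 and its copies had a log2 fold change of -0.65 ± 0.12 (SE). Copies held 19.2% of the summed counts of Rpl7a, mostly in Rpl7a-ps5, which differed from Rpl7a at 9 aligned bases. Rpl7a-ps5 was at 12.9, 14.2 and 14.1 CPM with estrogen and at 9.69, 15.5 and 8.32 CPM with vehicle, with overlapping groups. The sum of Rpl7a and its copies was at 59.4, 66.2 and 55.8 CPM with estrogen and at 103, 101 and 99.1 CPM with vehicle, a log2 fold change of -0.74 ± 0.12 (SE; edgeR adjusted p = 0.206).

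**Figure D5:**
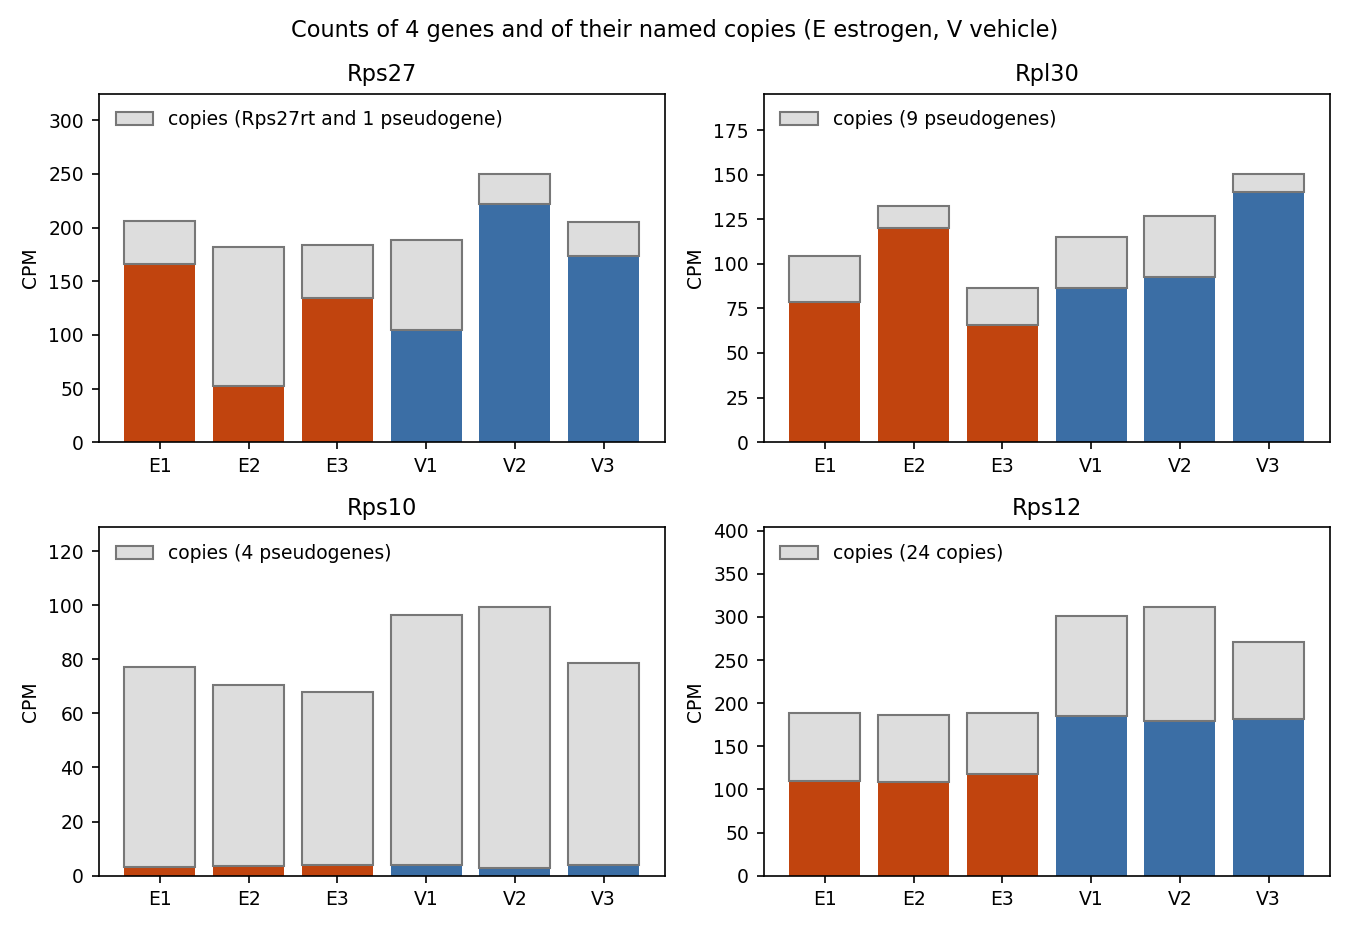
CPM of Rps27, Rpl30, Rps10 and Rps12 (coloured) with the CPM of their named pseudogene and retrogene copies stacked above (grey), for estrogen libraries E1 to E3 and vehicle libraries V1 to V3. The sums of Rps27 and its copies run from 182 to 206 CPM with estrogen and from 188 to 250 CPM with vehicle although Rps27 alone runs from 52.2 to 166 CPM with estrogen and from 105 to 222 CPM with vehicle, and almost all of the Rps10 sum is in its copies.

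Levels per kilobase of counted gene length spread widely. The counted length can far exceed a reference transcript, at 3020 against 570 bases for Rpl30 and 2027 against 490 bases for Rps12. The order below may therefore partly follow the annotation, and genes can be set side by side on this scale only roughly. Among small subunit genes Rps3a1 was the highest (426 CPM per kilobase with estrogen and 536 with vehicle), followed by Rps15 (405 with estrogen and 462 with vehicle), against a median of 149 over the 32 genes and all 6 libraries. Among large subunit genes Rplp1 led (923 CPM per kilobase with estrogen and 1186 with vehicle), followed by Rpl36 (490 with estrogen and 483 with vehicle) and Rpl41, which encodes the smallest ribosomal protein (379 with estrogen and 473 with vehicle), against a median of 107. The log2 fold changes of these 5 genes lay between -0.36 for Rplp1 and 0.024 for Rpl36. Across the 81 tested genes, log2 fold change and level per kilobase had a rank correlation of -0.054, and log2 fold change and counted length one of 0.091, as a description over genes that share libraries and scaling. Genes with a match to the motif within 10 bases of the start had a median log2 fold change of -0.20 (37 tested genes), and those without one -0.19 (24 tested genes).

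Other genes of the translation machinery were described from lists chosen with earlier results of these data known, and 0 of their members passed the adjusted threshold by edgeR or by DESeq2. The counts at an unadjusted p under 0.05 in these lists stand against 10.9% lower and 9.49% higher of all genes tested. Messages that share the TOP motif or code for ribosome-associated proteins lay between the ribosomal proteins and the rest, with a median log2 fold change of -0.10 over 14 genes, 10 of them negative and 1 lower at an unadjusted p under 0.05. That gene, the nucleosome assembly factor Nap1l1, was at 115, 97.7 and 89.5 CPM with estrogen and at 149, 132 and 124 CPM with vehicle. Rack1, a scaffold protein of the small subunit, averaged 332 ± 13.7 CPM with estrogen, against 404 ± 37.2 CPM with vehicle, and Gas5, a noncoding host of small nucleolar RNAs, averaged 43.9 ± 5.48 CPM with estrogen, against 53.3 ± 1.90 CPM with vehicle (SD, n = 3 each). All 3 genes, which were taken by smallest p in the list, had every estrogen library below every vehicle library. Over the 14 genes this held in 4 and the reverse in 1, against 14.8% and 12.6% of all genes tested.

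The 11 elongation and termination factors had a median of -0.0090, with 6 negative. Eef1g and Eef1b2, subunits of the exchange factor that reloads elongation factor 1A, had log2 fold changes of -0.31 ± 0.15 and -0.28 ± 0.14 (SE) without overlap between groups. Of the 11 factors, 3 had every estrogen library below every vehicle library and 0 the reverse, against 14.8% and 12.6% of all genes tested. Eef1a2, the elongation factor 1A form of muscle and neurons, was the 1 factor higher at an unadjusted p under 0.05, and its 94.9, 1.18 and 0 CPM with estrogen, against 1.01, 0.808 and 1.73 CPM with vehicle, placed this in estrogen library 1 alone, the library with muscle markers. The 35 initiation factors had a median of 0.085, with 26 positive and 0 past an unadjusted p of 0.05, and the smallest p belonged to Eif2b1 (0.42 ± 0.18, SE), Eif5 (0.33 ± 0.14, SE) and Eif2b3 (0.29 ± 0.14, SE). Differences between the lists were not tested.

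Genes that make ribosomes lay near the median of all genes. Over 54 biogenesis factors the median was 0.014, with 27 negative and 27 positive, 3 lower and 1 higher at an unadjusted p under 0.05. The lower ones of smallest p were Nop58, a core protein of box C/D small nucleolar ribonucleoproteins (17.9 ± 0.277 CPM with estrogen, against 25.3 ± 4.83 CPM with vehicle), Noc3l, which acts in maturation of the large subunit (14.4 ± 1.02 CPM with estrogen, against 18.7 ± 1.74 CPM with vehicle), and Utp14a of the small subunit processome (9.48 ± 0.5005 CPM with estrogen, against 12.3 ± 0.353 CPM with vehicle; SD, n = 3 each). Of the 15 genes listed for RNA polymerase I transcription, which makes ribosomal RNA, 10 were positive (median 0.11). The transcription factor Myc, a known driver of ribosomal gene expression, was at 14.9, 13.4 and 17.1 CPM with estrogen and at 20.4, 17.0 and 24.7 CPM with vehicle, and estrogen library 3 overlapped vehicle library 2. Rrn3, an initiation factor of polymerase I, and Polr1d, a subunit that polymerases I and III share, had log2 fold changes of 0.28 and 0.27.

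The mTORC1 list, which covers the pathway that controls translation of TOP messages, had a median of 0.21 over 29 genes, 24 of them positive. At an unadjusted edgeR p under 0.05, 2 were lower and 2 higher, against 10.9% lower and 9.49% higher of all genes tested. The list mixes genes that promote the pathway with inhibitors of it, so its median gives no direction of pathway activity. Mtor, the kinase of the pathway, was at 121, 175 and 113 CPM with estrogen and at 109, 95.3 and 89.6 CPM with vehicle, without overlap (0.48 ± 0.19, SE). Sesn1, a stress-induced inhibitor of the pathway, averaged 34.0 ± 5.81 CPM with estrogen, against 47.2 ± 9.32 CPM with vehicle (SD, n = 3 each), and the groups did not overlap. Rragb, a GTPase that brings mTORC1 to the lysosome, had the largest difference of the 3, at very low levels of 0.980, 0.916 and 0.696 CPM with estrogen and 0.152, 0.354 and 0.173 CPM with vehicle. The 19 tested genes listed under ribosome chaperones and quality control had a median of 0.054, with 0 lower and 2 higher at an unadjusted p under 0.05. These were Acbd6 (0.30 ± 0.11, SE) and Aar2 (0.33 ± 0.14, SE). Their place in the list does not show that either acts on ribosomal proteins. Btf3l4, next by p, had a log2 fold change of 0.20.

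The ribosomal proteins of mitochondria, which build the separate ribosome that translates the mitochondrial chromosome, stood on the other side of the median of all genes. Of 78 such genes 77 were tested, and 70 were positive, with a median log2 fold change of 0.28, against -0.21 for the cytosolic ones. At an unadjusted p under 0.05 there were 23 higher and 1 lower, against 9.49% higher and 10.9% lower of all genes tested, and DESeq2 called 3 higher and 0 lower past its adjusted threshold, against 2.75% higher and 3.34% lower of all genes. All estrogen libraries lay above all vehicle libraries in 26 of the 77, against 12.6% of all genes tested. Their summed level was 2907, 3495 and 3429 CPM with estrogen and 3040, 2534 and 2574 CPM with vehicle, so that the sums overlapped in estrogen library 1 and vehicle library 1. The summed level of the cytosolic genes was 17682, 17149 and 17421 CPM with estrogen and 20437, 21569 and 18769 CPM with vehicle, without overlap.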

How the data were processed

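The table the authors deposited holds read counts of 54532 genes without normalization, with symbols, positions and lengths. Per the submitters' processing notes HISAT2, featureCounts and the mm10 build were used. Versions, strand setting and the handling of reads that map to several places were not given in the sources used here, so genes with near-identical copies (61 members have named copies) and genes that share exon bases with another gene (38 of the 83 members, 19 of them on the opposite strand) are uncertain.

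Groups and replicate numbers came from the sample titles. Libraries of a group differed beyond sampling noise (chi-square per degree of freedom 41.7 to 88.6). All genes kept by filterByExpr (15591) were compared in edgeR (quasi-likelihood F test) with TMM scaling, no replicate block and Benjamini-Hochberg adjustment at 0.05 (R 4.3.3, edgeR 4.0.16), tested on simulated data. DESeq2 1.42.0 and limma 3.58.1 (voom) were alternatives, beside other scalings, filters, a length offset, a replicate block and left-out libraries. Adding copies to their parent gene was chosen after seeing the data. CPM values are TMM-scaled, and a count of 3 was the detection floor. Standard errors come from the F statistic.

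The members and lists were chosen with earlier results of these data known. The rule for named genes took, per subunit, members past the threshold or else the 5 of smallest p, the 2 highest and 2 lowest log2 fold changes, the 3 highest levels per length, a set of paralogues, stalk and other genes whatever their values, and 3 genes per list. Rpl17, Rpl18, Rpl30 and the copies were named after their values were seen. Promoter windows came from RefSeq (GRCm38.p6), and transcripts and exon overlaps from GENCODE M21. Protein sequences were not used here. A few results that the rule would name are not reported singly here, and they stay in the counts and medians.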

Additional observations from a re-analysis of the deposited data

How the results depend on the processing

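Over 777 values of the 39 named and tested genes under the alternatives, 752 kept their direction and their side of the threshold. DESeq2 brought Rpl7a and Rps12 past the threshold, so that it called 2 members where edgeR called 0, and 854 genes in all. Over all alternatives the log2 fold change lay between -1.16 and -0.74 for Rpl7a and between -0.87 and -0.65 for Rps12, with adjusted p of 3.77e-07 to 0.520 and 1.60e-07 to 0.520. Deviations of libraries with the same replicate number in the titles correlated at -0.12, 0.16 and 0.29, and those of unlike number at -0.36 to 0.17. With 3 libraries per group these values cannot tell whether libraries were paired. The column names of the counts number some libraries otherwise than the titles. With the replicate block 6 members (2 small and 4 large subunit genes) were lower at an unadjusted p under 0.05, against 13 without it, and 0 passed the adjusted threshold. With library totals alone 59 were (25 small and 34 large), and the medians were -0.371 over all members, -0.372 for small and -0.371 for large subunit genes. Every estrogen library then lay below every vehicle library in 70 members and in 4052 of all 15591 genes tested. With TMM scaling this held in 43 members and 14.8% of all genes. For the alternatives the share of all genes lower at an unadjusted p under 0.05 was not worked out. Leaving out 1 library gave 2 to 14 members lower at an unadjusted p under 0.05 (1 to 6 small and 1 to 8 large) and a difference of small minus large medians of -0.0268 to 0.013. Without both estrogen replicates 1 and 3 there were 4 (2 small and 2 large), and the difference was -0.0366. The ratio of shares was 0.860 on TMM-scaled sizes, and 3 of the 6 highest members were shared when levels were not divided by length. The 23 reversals fell in 8 genes near 0. With library totals they were Rps10 (-0.16), Rps27a (-0.053), Rpl24 (-0.12) and Rpl36 (-0.14), with limma-voom Rpl24 (-0.045), and with copies added Rps10 (-0.35). Without both estrogen replicates 1 and 3 they were Rpl24 (-0.044), Rpl7l1 (0.16), Rps27l (0.021) and Rplp2 (0.0067). Leaving out 1 library, values ran from -0.11 to 0.10 for Rps10, -0.16 to 0.63 for Rps27a, -0.34 to 0.34 for Rpl24, -0.074 to 0.081 for Rpl36, -0.18 to 0.061 for Rpl7l1, -0.12 to 0.014 for Rplp2 and -0.18 to 0.041 for Rpsa. The cause of these changes was not tested.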
